A study of Mus musculus with 12 samples.

Results

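*Mest*, *Sfrp5*, *Npr3*, *Bmp3* and *Cav1* are 5 genes whose RNA in white fat is associated with expansion of the tissue. They were listed by name, with no threshold on their values, out of 20660 genes named on the array. Every array probe whose RefSeq accession matched 1 of the 5 symbols was taken, which gave 7 probes of the 55681 on the array, 3 for *Mest* and 1 for each of the others. All 7 were among the 32121 probes tested, those that in some group exceeded background clearly on each of its 3 arrays.

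The 12 Agilent arrays, each hybridised with the labelled RNA of 1 sample, fell into 4 groups of 3. The groups were subcutaneous white adipose tissue (scWAT) and brown adipose tissue (BAT) of wild-type (WT) mice and of *Lr11* -/- mice, which lack the receptor LR11/SorLA in every cell. All mice were C57Bl6/J males, labelled as 12 weeks old and as fed a high-fat diet (HFD, D12492) with 60% of energy from fat. How long they were fed it is uncertain, since the labels state 4 weeks and also feeding since weaning. They do not name the mouse behind an array, so p values measure the spread between these arrays, and whether scWAT and BAT came from the same mice is not stated. The labels carry no replicate numbers, so the arrays of a group are numbered here in the order of the samples. Replicate 1 of each group belonged to a first array series and replicates 2 and 3 to a second. In the first series scWAT and BAT lay on separate slides, and all 8 arrays of the second series shared 1 slide.

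A value is the log2 of a spot's background-subtracted intensity minus the 75th percentile of its array on the same scale, so a value of 0 equals that percentile. Levels can be compared between arrays for 1 probe but not between probes. Of 59305 spots on an array, 32377 to 37002 were well above background and 0 saturated. *Sorl1*, the gene deleted in *Lr11* -/- mice, was lower by a log2 difference of −4.34 in *Lr11* -/- scWAT (adjusted p = 0.0063 from limma) and by −3.63 in *Lr11* -/- BAT (adjusted p = 0.032). Some arrays stood apart in markers of cell types. The mean of 6 adipocyte markers was 4.00 on WT scWAT replicate 2 and between 6.30 and 7.64 on the other 11 arrays. Skeletal muscle markers (8 genes) were all well above background on 5 arrays, with a mean of 5.06 to 8.03, and had a mean between −4.89 and −3.31 on the other 7. The 5 were WT scWAT replicate 3, *Lr11* -/- scWAT replicate 1, WT BAT replicates 1 and 3 and *Lr11* -/- BAT replicate 1. The mean of 6 epithelial markers was 1.28 on *Lr11* -/- scWAT replicate 1 and between −4.71 and −2.45 elsewhere, and that of 5 macrophage markers 4.75 on WT scWAT replicate 2 and between 1.23 and 3.10 elsewhere. In whole tissue, fewer cells of a type and less RNA per cell cannot be told apart.

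White fat expands by the enlargement of adipocytes with lipid and by the formation of new ones. *Mest* encodes a protein of the endoplasmic reticulum with an alpha/beta hydrolase fold and is expressed from the paternal copy only. Its RNA varies widely between genetically identical mice on a HFD and is known as a marker of fat mass gain. *Sfrp5* encodes a secreted frizzled-related protein, which binds Wnt ligands outside the cell. *Bmp3* encodes a member of the BMP family that opposes the signalling of other BMPs through activin receptors. *Npr3* encodes the clearance receptor that removes natriuretic peptides, hormones that stimulate lipolysis in fat. *Cav1* encodes caveolin-1, the structural protein of caveolae, the small pits that cover the surface of adipocytes and endothelial cells.

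The promoters of the members that followed each other over the arrays are shown as RefSeq gives them on GRCm38.p6, each running from 250 bases before to 50 bases after a transcription start. The table held 7 such windows for 4 of the 5 genes, 3 for *Mest*, 2 for *Cav1* and 1 each for *Sfrp5* and *Npr3*, and none was matched for *Bmp3*. One window of each gene is printed. Capitals mark matches on either strand to the TATA box TATAAA, the CCAAT box (letters CCAAT) or the GC box GGGCGG. The E box CACGTG, the cAMP response element TGACGTCA, the palindrome bound by C/EBP factors and the direct repeat bound by PPARG were also searched and had no match in the windows shown.
Mest, chr6:30737800-30738099, plus strand: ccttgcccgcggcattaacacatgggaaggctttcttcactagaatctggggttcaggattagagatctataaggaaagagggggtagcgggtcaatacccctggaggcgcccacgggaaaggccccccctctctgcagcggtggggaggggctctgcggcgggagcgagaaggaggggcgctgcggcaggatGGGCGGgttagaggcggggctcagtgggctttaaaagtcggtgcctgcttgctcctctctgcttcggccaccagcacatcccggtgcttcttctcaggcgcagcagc
Sfrp5, chr19:42202203-42202502, minus strand: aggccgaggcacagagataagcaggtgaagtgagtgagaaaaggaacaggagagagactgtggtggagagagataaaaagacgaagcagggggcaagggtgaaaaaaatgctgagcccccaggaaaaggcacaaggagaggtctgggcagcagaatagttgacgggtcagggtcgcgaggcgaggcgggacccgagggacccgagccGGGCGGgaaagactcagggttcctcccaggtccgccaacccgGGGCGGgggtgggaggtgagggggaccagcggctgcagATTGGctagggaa
Npr3, chr15:11907322-11907621, minus strand: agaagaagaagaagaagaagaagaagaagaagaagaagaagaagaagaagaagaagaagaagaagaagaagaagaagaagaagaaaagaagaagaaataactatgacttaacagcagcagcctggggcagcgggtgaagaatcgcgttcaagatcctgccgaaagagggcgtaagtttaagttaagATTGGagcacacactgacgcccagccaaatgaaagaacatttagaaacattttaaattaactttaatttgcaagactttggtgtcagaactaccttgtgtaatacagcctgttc
Cav1, chr6:17306085-17306384, plus strand: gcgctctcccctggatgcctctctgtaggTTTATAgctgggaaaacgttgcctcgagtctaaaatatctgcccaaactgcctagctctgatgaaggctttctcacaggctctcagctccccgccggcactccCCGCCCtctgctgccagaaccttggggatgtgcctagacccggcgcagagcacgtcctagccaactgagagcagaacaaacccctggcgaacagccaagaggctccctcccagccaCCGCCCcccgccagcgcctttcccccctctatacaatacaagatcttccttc
The GGGCGG motif was present once in the *Mest* window, in 2 places in that of *Sfrp5* and in 2 places in that of *Cav1* shown, and 35.7% of all 32851 promoters in the table held it. CCAAT was found once each in the *Sfrp5* and *Npr3* windows (37.4% of all promoters), and TATAAA once in that of *Cav1* (13.6%). The 2 *Mest* windows not printed also held GGGCGG once each, and the *Cav1* window not printed (chr6:17307390-17307689) held 0 of the motifs searched. Of all promoters 7.15% held CACGTG, 1.79% TGACGTCA, 0.00609% the C/EBP palindrome and 0.0396% the direct repeat. *Npr3* and *Cav1*, whose levels followed each other, shared none of these motifs in the windows shown. The ratio of observed to expected CpG was 0.59 for *Mest*, 0.622 for *Sfrp5*, 0.584 for *Npr3* and 0.535 for *Cav1*, with a median of 0.384 over all promoters. In the windows not printed it was 0.327 (chr6:30733256-30733555) and 0.605 (chr6:30737803-30738102) for *Mest* and 0.601 for *Cav1*.

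*Mest* was read from probe A_51_P124535, which is spotted 10 times on each array. In WT scWAT it stood at 7.04, 1.74 and 3.33 on replicates 1 to 3. In *Lr11* -/- scWAT it stood at 1.15, −0.25 and 0.12. The 2 genotypes did not overlap, and the WT arrays alone spanned more than 5 log2 units. In WT BAT the level was 0.14, −0.26 and −0.09. *Lr11* -/- BAT stood at −0.62, −0.84 and −2.31, again without overlap. The group means fell in the order WT scWAT (4.04 ± 2.72, SD, n = 3), *Lr11* -/- scWAT (0.34 ± 0.73), WT BAT (−0.07 ± 0.20) and *Lr11* -/- BAT (−1.26 ± 0.92). The arrays of *Lr11* -/- scWAT and WT BAT overlapped, and no other neighbours in this order did.

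The spread of *Mest* lay between arrays and not between spots. Over the 10 spots of the probe on an array the SD was between 0.031 and 0.13, while over the 3 WT scWAT arrays it was 2.72. Only 1.73% of all tested probes had a WT scWAT SD as large, and the median probe had 0.52. The other 2 *Mest* probes, A_55_P2090025 and A_55_P2151868, match a second RefSeq transcript. Their correlation with the first probe over the 12 arrays was 0.998 and 0.986. On A_55_P2090025 the WT scWAT arrays stood at 6.11, 0.44 and 2.15 and the *Lr11* -/- scWAT arrays at −0.07, −1.03 and −0.74. A_55_P2151868 was dimmer, and was well above background on 3 of 3 WT scWAT, 1 of 3 *Lr11* -/- scWAT, 3 of 3 WT BAT and 0 of 3 *Lr11* -/- BAT arrays. The order of the group means held on A_55_P2090025. On A_55_P2151868 WT BAT (−3.74) was above *Lr11* -/- scWAT (−4.13).

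**Figure D1:**
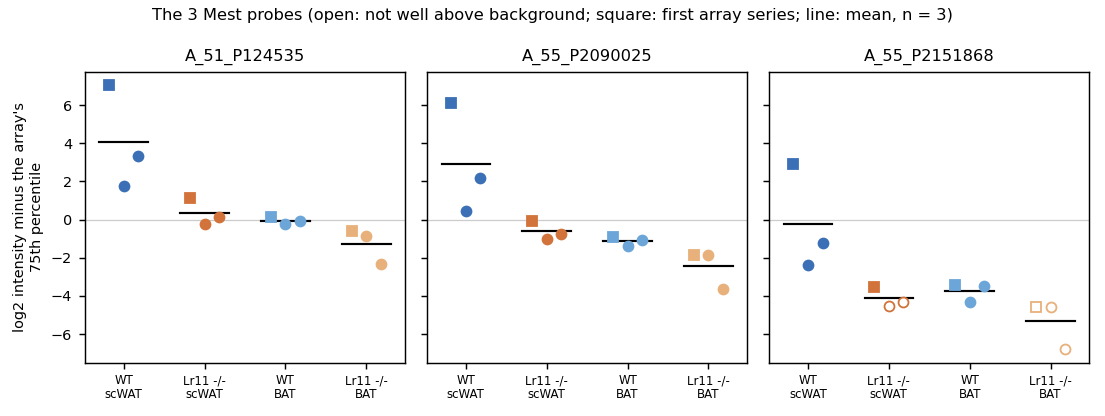
Level of *Mest* on each array for its 3 probes, as log2 intensity minus the array's 75th percentile, by group (n = 3; line, group mean; square, first array series; circle, second; open, not well above background). On each probe WT scWAT replicate 1 is the highest array and the *Lr11* -/- scWAT arrays all lie beneath those of WT scWAT.

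*Sfrp5* (probe A_55_P2020203) varied even more in WT scWAT, at 6.25, −1.29 and 3.86 on replicates 1 to 3. In *Lr11* -/- scWAT it was 2.14, −0.80 and −0.20. The WT values lay on both sides of all *Lr11* -/- values. WT BAT had 0.66, −0.80 and 0.41, and *Lr11* -/- BAT 1.15, 1.18 and −0.92. Its WT scWAT SD of 3.86 was reached by 0.467% of all tested probes. The means of the 4 groups ran from 2.94 in WT scWAT to 0.09 in WT BAT, and the arrays of all 4 groups overlapped.

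*Bmp3* (probe A_52_P207303) stood at 1.54, −0.98 and −1.19 in WT scWAT. In *Lr11* -/- scWAT it was −1.16, −1.93 and −1.65. The 2 WT arrays of the second series were close to the highest *Lr11* -/- array, and replicate 1 was above them by more than 2 log2 units. WT BAT had −2.83, −3.38 and −3.39 and *Lr11* -/- BAT −3.84, −2.72 and −3.44, below every scWAT array of either genotype. The order of the means was WT scWAT (−0.21 ± 1.52, SD, n = 3), *Lr11* -/- scWAT (−1.58 ± 0.39), WT BAT (−3.20 ± 0.32) and *Lr11* -/- BAT (−3.33 ± 0.57), and only the step between *Lr11* -/- scWAT and WT BAT showed no overlap of arrays.

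*Npr3* (probe A_51_P247184) was 5.27, −0.32 and 1.98 in WT scWAT. In *Lr11* -/- scWAT it was 0.52, 3.61 and 4.22. In the first array series the WT array was the higher, and in the second both *Lr11* -/- arrays were above both WT arrays. BAT showed a narrower range, with 3.18, 3.11 and 1.61 for WT and 2.45, 3.39 and 1.69 for *Lr11* -/- mice. The means of the 4 groups lay within 2.31 and 2.78, with overlap throughout.

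*Cav1* (probe A_55_P2126662) was 3.66, 0.58 and 0.59 in WT scWAT. In *Lr11* -/- scWAT it was 0.35, 2.61 and 2.72, the same crossing as for *Npr3*. BAT showed little spread, with 2.26, 2.22 and 1.96 for WT and 2.0, 2.41 and 2.06 for *Lr11* -/- mice. The means of the 4 groups lay within 1.61 and 2.16 and all overlapped. All 5 genes had their highest value of the 12 arrays on WT scWAT replicate 1, which was the highest array for 10.4% of all tested probes. The lowest value fell on WT scWAT replicate 2 for *Sfrp5* and *Npr3*, on *Lr11* -/- scWAT replicate 1 for *Cav1*, on *Lr11* -/- BAT replicate 3 for *Mest* and on *Lr11* -/- BAT replicate 1 for *Bmp3*.

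**Figure D2:**
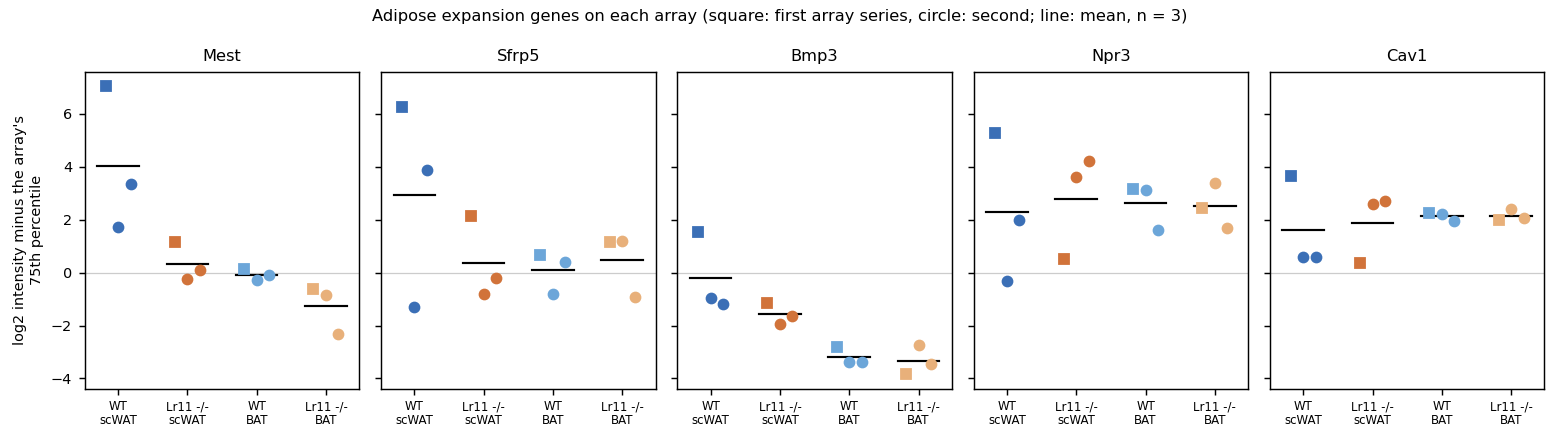
Level of each gene on each of the 12 arrays, as log2 intensity minus the array's 75th percentile, by group (n = 3; line, group mean; square, first array series; circle, second). WT scWAT replicate 1, the square of the first group, is the highest array in all 5 panels, and levels are to be compared within a panel only.

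The first comparison asked how deletion of *Lr11* altered scWAT on HFD, in 1 limma fit over the 12 arrays with p values adjusted by the Benjamini-Hochberg method over all 32121 probes. *Mest* was lower in *Lr11* -/- by a log2 difference of −3.70 (SE 1.06, 95% interval −6.05 to −1.35), or 13.0-fold, and did not pass the threshold (unadjusted p = 0.0055, adjusted p = 0.065 from limma). The other *Mest* probes gave −3.51 (adjusted p = 0.083) and −3.89 (adjusted p = 0.066). *Sfrp5* had a difference of −2.56 (SE 1.57, adjusted p = 0.31 from limma) and *Bmp3* of −1.37 (SE 0.62, adjusted p = 0.18). *Npr3* and *Cav1* had means slightly higher in *Lr11* -/-, by 0.47 (95% interval −2.41 to 3.35) and 0.28 (−1.51 to 2.07), with adjusted p = 0.84 and 0.85. Of the 5 genes 0 passed an adjusted p under 0.05 in limma and 1, *Mest*, an unadjusted p under 0.05. Of all tested probes 5.27% passed the former and 27.6% the latter. Only *Mest* of the 5 had genotypes without overlap (two-sided exact permutation test, p = 0.1, the smallest that 3 arrays against 3 allow), which 20.4% of all probes also showed. The median difference over the 5 genes was −1.37, and over all probes 0.04.

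The *Mest* call changed with the fit. Without WT scWAT replicate 1 the difference shrank to −2.20 and the adjusted p was 0.047, and without *Lr11* -/- scWAT replicate 1 it was −4.11 with an adjusted p of 0.043. A block for the array series gave an adjusted p of 0.046 and a block for the slide 0.042 (limma, difference −3.70 in both), and array weights 0.023. The fit to the 6 scWAT arrays alone gave 0.31, and the adjusted p spanned 0.023 to 0.31 over all alternatives. The sign of *Mest*, *Sfrp5* and *Bmp3* was negative in each of the 31 alternatives, with differences of −5.89 to −2.20, −5.42 to −0.91 and −2.70 to −0.50. Many of these could not change the scWAT difference. Another threshold or filter, a block, or a BAT array left out does not move it, so the 31 are not separate checks of the sign.

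**Figure D3:**
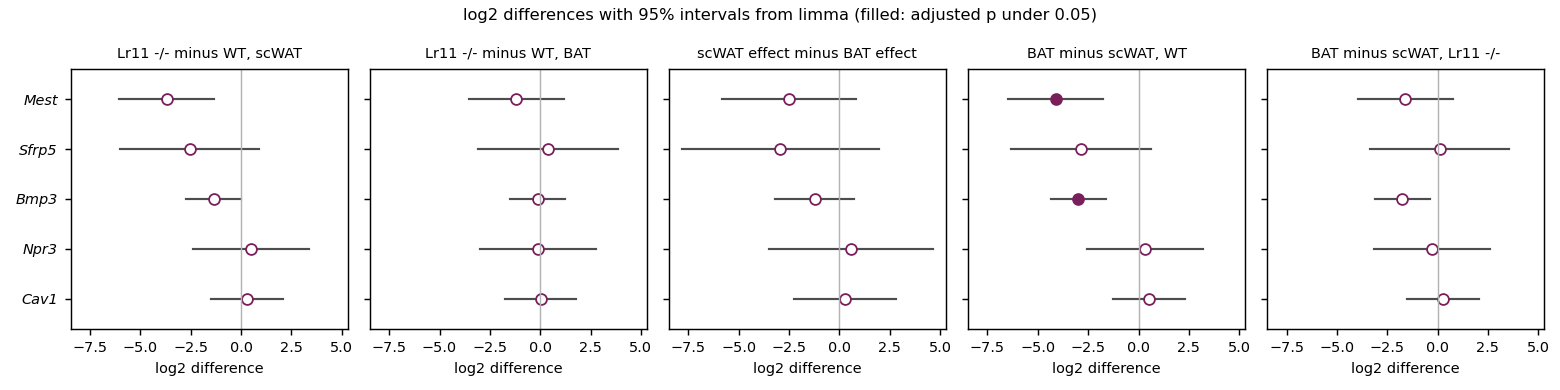
log2 differences of each gene with 95% intervals from limma for *Lr11* -/- minus WT in scWAT and in BAT, the difference between these, and BAT minus scWAT in WT and in *Lr11* -/- (12 arrays, 3 a group; filled, adjusted p under 0.05). The filled points are *Mest* and *Bmp3* in the comparison of WT tissues.

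By array series the genes fell into 2 patterns. In the first series, with 1 array a group and no test, the difference in scWAT was −5.89 for *Mest*, −4.11 for *Sfrp5*, −2.70 for *Bmp3*, −4.75 for *Npr3* and −3.31 for *Cav1*. In the second series it was −2.60, −1.79 and −0.71 for *Mest*, *Sfrp5* and *Bmp3*, of the same sign as in the first. For *Npr3* and *Cav1* it turned to 3.08 and 2.08. A limma fit to the second series alone, with 2 arrays a group, called *Mest* (adjusted p = 0.038) and *Cav1* (adjusted p = 0.0055, against 0.0055 to 0.98 across the alternatives) but not *Npr3* (adjusted p = 0.065). That fit called 21.7% of all probes it tested. A fall of at least 2 log2 units in the first series with a rise of at least 2 in the second, as *Npr3* and *Cav1* had, was seen for 114 of 32106 probes (0.355%), and opposite signs of any size for 50.4%.

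**Figure D4:**
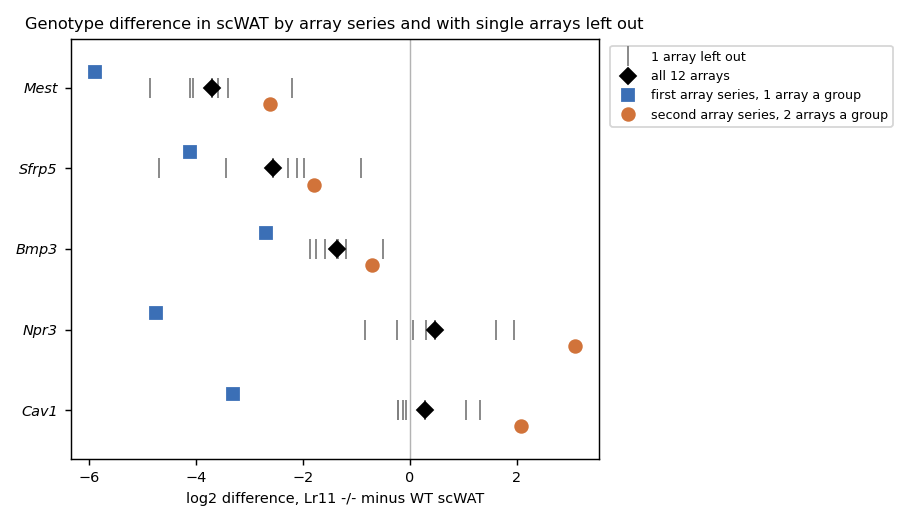
log2 difference between *Lr11* -/- and WT scWAT for each gene over all 12 arrays (diamond), with each array left out in turn (bars), in the first array series (square, 1 array a group) and in the second (circle, 2 arrays a group). *Mest*, *Sfrp5* and *Bmp3* lie left of 0 throughout, and the series of *Npr3* and *Cav1* lie on opposite sides of 0.

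Over the 12 arrays the correlation between *Mest* and *Bmp3* was 0.90, between *Mest* and *Sfrp5* 0.83 and between *Sfrp5* and *Bmp3* 0.67. *Npr3* and *Cav1* had a correlation of 0.90, and the correlations across the 2 sets were between 0.08 and 0.37. In the 6 scWAT arrays alone the values were 0.95, 0.88, 0.79 and 0.94 in the same order, and all of them share the 1 array on which every member was highest. In the 6 BAT arrays that of *Npr3* and *Cav1* was 0.87, and those among *Mest*, *Sfrp5* and *Bmp3* were between 0.22 and 0.44. *Bmp3* and *Cav1* had 0.85 in BAT and 0.08 over all arrays.

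Markers of other cells moved with these values. The mean of 6 brown adipocyte markers was between −3.88 and 1.84 on the WT scWAT arrays and between 2.77 and 7.30 on the *Lr11* -/- scWAT arrays, without overlap, and between 5.92 and 7.14 in BAT. Its correlation over the 12 arrays was −0.73 with *Mest*, −0.74 with *Bmp3* and −0.38 with *Sfrp5*. The 6 stromal progenitor markers had a correlation of 0.68 with *Mest* and 0.69 with *Bmp3*, with means of 2.91 to 3.67 in WT and 1.2 to 3.15 in *Lr11* -/- scWAT. The 6 B lymphocyte markers had 0.66 with *Mest* and 0.44 with *Bmp3*, and their means did not overlap in scWAT (−2.41 to −2.02 in WT, −3.32 to −3.28 in *Lr11* -/-). These means include genes at background. Well above it were 6, 4 and 6 of the 6 on the WT and 3, 4 and 2 on the *Lr11* -/- scWAT arrays. Of the 4 that could be tested 0 passed between the genotypes in scWAT in limma. The macrophage markers had 0.69 with *Bmp3* and 0.53 with *Mest*, but 0.29 and 0.19 over the 6 scWAT arrays. Over those 6 the stromal progenitor markers had 0.47 with *Mest* and 0.40 with *Bmp3*, and the B lymphocyte markers 0.71 and 0.50. The brown adipocyte markers had −0.59 with *Mest* and −0.57 with *Bmp3* there. Endothelial markers had −0.13 with *Bmp3* over 12 arrays and 0.68 over the 6. Values over the 12 arrays thus also hold the difference between the tissues. The 6 mural and smooth muscle markers moved with *Sfrp5* (correlation 0.89 over 12 arrays, 0.95 over the 6 of scWAT), *Mest* (0.64 and 0.82) and *Bmp3* (0.53 and 0.74), with means of 3.15, 1.86 and 2.73 in WT and 2.73, 1.81 and 1.69 in *Lr11* -/- scWAT. The 8 endothelial markers moved with *Cav1* (0.79 over 12 arrays) and *Npr3* (0.53), and the 6 adipocyte markers with *Npr3* (0.70) and *Cav1* (0.63). The other way ran the epithelial (−0.65 with *Cav1*, −0.43 with *Npr3*), stromal progenitor (−0.57 and −0.41) and skeletal muscle markers (−0.56 and −0.40, and −0.74 and −0.51 over the 6 scWAT arrays). The epithelial mean stood apart on 1 array only, *Lr11* -/- scWAT replicate 1 (1.28, against −4.71 to −2.45 elsewhere), on which *Cav1* was lowest. The part of these cell types in the results was not tested. With the adipocyte mean as a covariate, an alternative chosen after the values were seen, the scWAT difference was −5.62 for *Mest* (adjusted p = 0.034 from limma), −1.85 for *Npr3* (adjusted p = 0.39) and −0.91 for *Cav1* (adjusted p = 0.60), so that the latter pair changed sign. Without the 5 arrays with skeletal muscle signal, also chosen later, *Mest* had −4.46 (adjusted p = 0.16) and *Bmp3* −2.07 (adjusted p = 0.18).

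Between the genotypes in BAT 0 of the 5 genes passed the adjusted and 0 the unadjusted threshold in limma, against 0.0187% and 2.12% of all probes. *Mest* had a difference of −1.19 (SE 1.06, adjusted p = 1 from limma). Its genotypes did not overlap on any of the 3 probes, as for 12% of all tested probes. On the dimmest, with 0 of 3 *Lr11* -/- BAT arrays well above background, the *Lr11* -/- mean was at least 1.69-fold lower. That bound allows for the background only, and the 95% interval of the log2 difference from limma was −4.07 to 0.91. The others had differences of 0.38 for *Sfrp5*, −0.14 for *Bmp3*, −0.12 for *Npr3* and 0.01 for *Cav1*. The 95% intervals were wide, from −3.08 to 3.84 for *Sfrp5* and from −1.78 to 1.80 for *Cav1*. Limma took 1 spread per probe over all 4 groups, so these intervals and SEs carry the scWAT spread too. For *Cav1* the SD was 0.16 in WT BAT and 0.23 in *Lr11* -/- BAT, against 1.77 and 1.34 in scWAT of the same genotypes. The difference between the scWAT and BAT effects was −2.51 for *Mest* (SE 1.5, adjusted p = 0.54 from limma) and −2.94 for *Sfrp5* (SE 2.21, adjusted p = 0.63). It passed the adjusted threshold for 0 of the 5 genes and 0% of all probes, and an unadjusted p under 0.05 for 0 genes and 11% of all probes. An effect particular to scWAT was not shown for any of them. In the second array series alone the difference was 1.93 for *Cav1* (adjusted p = 0.044, against 0.044 to 0.99 across the alternatives), where 2.57% of all probes passed.

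Between the tissues of WT mice *Mest* and *Bmp3* passed the adjusted threshold. Their SEs pool the spread of all 4 groups. The SD in WT scWAT was 2.72 for *Mest* and 1.52 for *Bmp3*, against 0.20 and 0.32 in WT BAT. These SEs thus understate the spread of the WT scWAT arrays. *Mest* was lower in BAT than in scWAT by a log2 difference of −4.11 (SE 1.06, adjusted p = 0.020 from limma), or 17.3-fold, and its other probes passed as well, at −4.03 (adjusted p = 0.026) and −3.50 (adjusted p = 0.045). *Bmp3* was lower in BAT by −2.99 (SE 0.62, adjusted p = 0.0090), or 7.93-fold. *Sfrp5* had −2.85 (SE 1.57, adjusted p = 0.20), *Npr3* 0.32 (SE 1.3, adjusted p = 0.88) and *Cav1* 0.53 (SE 0.81, adjusted p = 0.65). Thus 2 of the 5 genes passed the threshold, both lower in BAT, where 24.8% of all probes passed and 9.13% did so with a lower level in BAT. The tissues did not overlap for these 2 genes and for 40.2% of all probes. In the first array series, where tissue and slide cannot be told apart, the differences were −6.90 for *Mest* and −4.37 for *Bmp3*, and in the second, on 1 slide, −2.71 and −2.30. Without WT scWAT replicate 1 the difference shrank to −2.61 for *Mest* and −2.11 for *Bmp3*, both still called, and without replicate 2 it was −5.26 for *Mest* (limma, adjusted p = 0.014, 0.0051 and 0.011). The *Mest* call was lost without any 1 WT BAT array (adjusted p = 0.056, 0.070 and 0.051 without replicates 1, 2 and 3) and in the fit to the 6 WT arrays (0.077), while over all alternatives the adjusted p lay between 0.0043 and 0.23. *Bmp3* passed in each alternative with a test except the fit without the 5 arrays with skeletal muscle signal. That fit leaves WT BAT replicate 2 alone in its group, and the difference there was −3.66.

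In *Lr11* -/- mice the differences between the tissues were smaller in size, with −1.60 for *Mest* (SE 1.06, adjusted p = 0.68 from limma) and −1.75 for *Bmp3* (SE 0.62, adjusted p = 0.44). For both the arrays of the tissues did not overlap, as for 23.2% of all probes. *Sfrp5*, *Npr3* and *Cav1* had 0.10, −0.27 and 0.26. In limma 0 of the 5 genes passed the adjusted threshold and 1, *Bmp3*, the unadjusted one, against 0.0405% and 9% of all probes. The comparisons share arrays, and the lower level of *Mest* in *Lr11* -/- scWAT enters both this comparison and that of the genotypes.

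The relatives and partners of the members were taken as lists, each read from the brightest tested probe of a gene. Their counts are to be read against all probes, of which 5.27% passed between the genotypes in scWAT, and 15.7% were higher and 9.13% lower in BAT than in scWAT of WT mice. The fit to the scWAT arrays alone called no probe, so no list gene called in scWAT keeps its call there. Among the Wnt antagonists, to which *Sfrp5* belongs, 12 of 16 listed genes could be tested. In scWAT 2 of the 12 passed, both lower in *Lr11* -/-, with a median of −1.97 over the list. *Sfrp1* was −2.21, 0.69 and −1.84 on the WT arrays and −3.51, −4.38 and −4.43 in *Lr11* -/- scWAT, well above background on 1 of the latter 3 arrays, with a difference of −2.99 (SE 0.70, adjusted p = 0.044 from limma). *Wif1*, which binds Wnt ligands directly, was well above background on all WT and 0 of 3 *Lr11* -/- scWAT arrays. It was at least 3.82-fold lower in *Lr11* -/- scWAT (adjusted p = 0.049 from limma). In BAT of either genotype it was well above background on 0 arrays. *Wif1* was thus tested only because of its level in WT scWAT, and its calls here and between the WT tissues compare that level with values at background. *Dkk2* was likewise tested only for its level in WT scWAT, being well above background on 1 of 3 arrays in each other group. Both enter the list median of −1.97 in scWAT, which thus rests in part on values at background. Among the WT scWAT arrays *Sfrp2* was highest on replicate 2 (4.81), *Sfrp4* on replicate 3 (3.6) and *Sfrp5* on replicate 1. In WT mice 5 of the 12 were lower in BAT than in scWAT and 2 higher. The lower ones included *Sfrp4* (−3.85), *Dkk3* (−3.78), *Sfrp2* (−3.58) and *Wif1* (at least 3.92-fold). In BAT of *Lr11* -/- against WT mice 0 of the 12 passed in limma, with a median of 0.28. Of 18 tested Wnt ligands, receptors and targets 1 passed in scWAT, the receptor gene *Fzd2* (−2.44, SE 0.52, adjusted p = 0.039), which was also lower in WT BAT than in WT scWAT (−2.47). *Axin2*, a target of canonical Wnt signalling, was higher in WT BAT (2.25, adjusted p = 0.025), as was *Fzd8* (0.96).

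**Figure D5:**
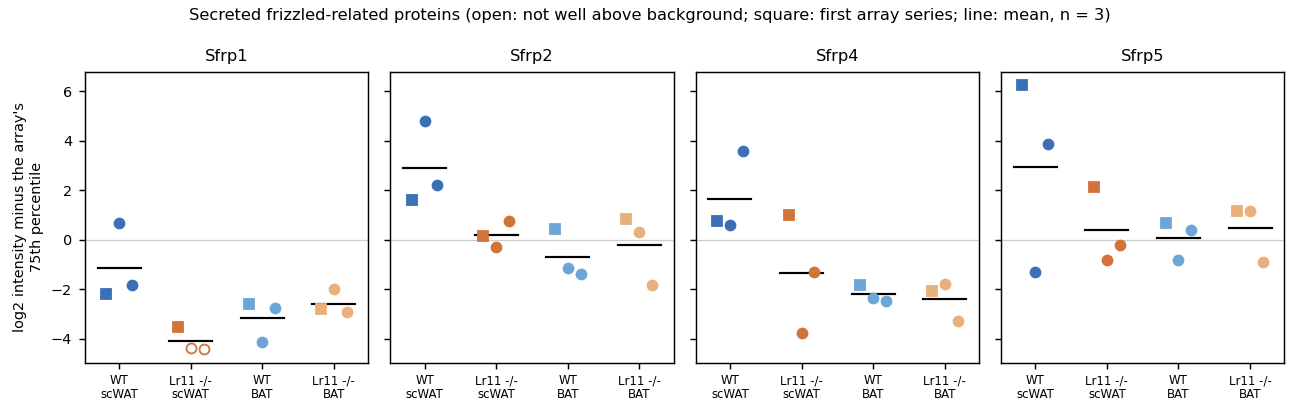
Level of 4 secreted frizzled-related protein genes on each array, as log2 intensity minus the array's 75th percentile, by group (n = 3; line, group mean; square, first array series; circle, second; open, not well above background). The highest WT scWAT array differs between the panels, being replicate 2 for *Sfrp1* and *Sfrp2*, replicate 3 for *Sfrp4* and replicate 1 for *Sfrp5*.

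For *Npr3*, 8 of 11 genes of the natriuretic peptide pathway could be tested. *Pde5a*, which encodes a phosphodiesterase that breaks down cGMP, the second messenger of these peptides, was the 1 that passed in scWAT. It stood at 1.12, 0.03 and 1.85 in WT and at 2.38, 4.50 and 4.93 in *Lr11* -/- scWAT, without overlap, a difference of 2.94 (SE 0.62, adjusted p = 0.039 from limma). It was also higher in WT BAT than in WT scWAT, by 3.74 (adjusted p = 0.0045). The signalling receptor genes *Npr1* and *Npr2* did not pass in either comparison, and the 8 genes had a median of 0.23 in scWAT. For *Cav1*, 0 of the 9 genes of caveolae passed in scWAT in limma, with a median of −0.30, and *Cavin3* was lower in WT BAT than in WT scWAT (−2.02, adjusted p = 0.028). *Cav2*, the neighbour of *Cav1* on chromosome 6, was the gene most like it over the 12 arrays, at 5.0, 2.12 and 1.97 in WT and 2.28, 3.76 and 4.20 in *Lr11* -/- scWAT (correlation 0.97).

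Of 12 relatives and receptors of *Bmp3*, 0 passed in scWAT in limma, with a median of −0.73, and in WT mice *Inhbb* (−2.21), *Fst* (−1.82) and *Bmp2* (−1.18) were lower and *Bmp6* (1.72) higher in BAT than in scWAT. For *Mest*, 14 of 18 other imprinted genes were tested. *Meg3* was the 1 that passed in scWAT, lower in *Lr11* -/- by −1.69 (SE 0.36, adjusted p = 0.039 from limma), with 2.64, 4.13 and 3.61 in WT and 2.32, 1.61 and 1.39 in *Lr11* -/-. In WT mice *Dlk1* (4.16), *Gnas* (2.60) and *Ndn* (1.87) were among 4 that were higher and *Grb10* (−2.38) among 2 that were lower in BAT. The median of these genes in scWAT was −0.36. The neighbours of *Mest* had smaller differences. *Copg2*, which overlaps *Mest* in the gene table, had a scWAT difference of 0.29 (SE 0.23, adjusted p = 0.44) and *Cep41* of −0.54 (SE 0.35, adjusted p = 0.34), while *Klf14* was too dim to be tested.

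For 16 genes of lipid filling and enlarged adipocytes the median difference in scWAT was 0.99. The genotypes overlapped, with a list mean of 6.39, 4.33 and 4.94 on the WT and 4.82, 5.97 and 6.19 on the *Lr11* -/- arrays. The lowest, WT scWAT replicate 2, was also the array low in adipocyte markers, some of which are in this list. In limma 1 of the 16 passed in scWAT. It was *Lox*, which cross-links collagen, at 1.67, 2.07 and 0.97 in WT and −0.85, −0.87 and −0.18 in *Lr11* -/- scWAT, a difference of −2.20 (SE 0.33, adjusted p = 0.016 from limma). In WT mice *Lox* (−2.58) and *Col6a3* (−2.32) were lower in BAT than in scWAT, while *Plin1* (2.52) and *Vegfa* (2.14) were among 4 that were higher. The genes most like the other members over the 12 arrays, of 14702 named genes, were *Ptgs1*, *S100a16* and *Cfap36* for *Mest* (correlation 0.96, 0.96 and 0.95), *Myl9*, *Tekt1* and *Wasf1* for *Sfrp5* (0.97, 0.96 and 0.94), *Bcl2l10*, *Olfml1* and *Pkmyt1* for *Bmp3* (0.96 each) and *Dhx32*, C130074G19Rik and *Prr32* for *Npr3* (0.97, 0.96 and 0.95). After *Cav2*, those most like *Cav1* were *Tmem14a* (0.97) and *Ermp1* (0.96). These values describe the 12 arrays, which share a tissue, a slide or a series in part.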

How the data were processed

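The authors deposited Agilent intensity values, extracted with Feature Extraction 10.10.1.1 per the file headers after background subtraction and spatial detrending, and without scaling across arrays. The array design names assembly mm9. Control spots and 128 to 181 outlier spots per array were left out. The log2 intensity minus the log2 of the array's 75th percentile was averaged over the spots of a probe. Of 28685 probes with a RefSeq accession 27235 matched a symbol of a GRCm38.p6 gene list, used for names and neighbours only. A gene was read from its brightest tested probe. Groups came from the tissue and genotype labels.

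All 12 arrays entered 1 fit in limma 3.58.1 (R 4.3.3) with a mean per group, and p values were adjusted over 32121 probes with a threshold of 0.05. A fold against a group with no array well above background is a lower bound, with each dim array set to at least its lowest clearly detected signal. Besides the 5 members, the genes named were *Sorl1*, the 3 most like each member, up to 4 per list with the largest differences past the threshold and the neighbours of *Mest*. *Lep* and the list genes named beside it, *Dkk2*, *Npr1*, *Npr2* and the levels of *Sfrp2* and *Sfrp4* on single arrays were added after their values were seen. The members and lists were chosen with earlier results of these data known. Alternatives were other scalings, background correction by normexp, other filters and thresholds, blocks, array weights, subsets of arrays and each array left out. The steps were tested on simulated data with 1 spread per probe for all groups. The real groups differ in spread, with a median SD of 0.52 in WT scWAT and 0.21 in *Lr11* -/- BAT, which that test does not cover. The number of arrays limits the precision.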

Additional observations from a re-analysis of the deposited data

How the results depend on the processing

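In scWAT 0 of the 5 genes passed between the genotypes, and 1 (*Mest*) did with a block for array series or one for slide, with array weights, a threshold of 0.1 or the adipocyte marker mean as a covariate, and 2 (*Mest*, *Cav1*) in the second array series alone. With 1 array left out it was 0 to 1. Between the WT tissues 2 passed, 1 with only the 6 WT arrays (*Bmp3*) or a threshold of 0.01, and 1 to 3 with 1 array left out. Neither *Mest* nor *Bmp3* kept its call without the 5 arrays with skeletal muscle signal, where WT BAT replicate 2 stands alone in its group. Between the *Lr11* -/- tissues 1 (*Bmp3*) passed with array weights, and for the difference between the genotype effects 1 (*Cav1*) in the second series alone. In the BAT genotype comparison the count was 0 in every alternative. The cause of these changes was not tested.

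Values with a changed sign belonged to *Npr3*, *Cav1*, *Sfrp5* and *Bmp3*, and none of these had been called. With the adipocyte mean as a covariate they were −1.85 and −0.91 for *Npr3* and *Cav1* between the genotypes in scWAT, −1.31 and −0.71 for the difference between the tissues' effects, −1.33 and −0.32 between the WT tissues, and −0.14 for *Sfrp5* and −0.20 for *Cav1* between the genotypes in BAT. *Cav1* in BAT was −0.0448 with quantile normalization and −0.0417 without scaling. *Sfrp5* between the *Lr11* -/- tissues was −0.0314 without scaling. *Bmp3* in BAT was 0.0853 with normexp, 0.30 in the second series and 0.30 without the 5 arrays. *Npr3* in BAT was 0.18 in the second series. *Cav1* between the *Lr11* -/- tissues was −0.36 with array weights, −0.43 in the second series and −0.43 without the 5 arrays. With each array left out in turn, scWAT genotype differences ran from −0.84 to 1.95 for *Npr3* and −0.23 to 1.31 for *Cav1*, those in BAT from −0.0632 to 1.08 for *Sfrp5*, −0.63 to 0.29 for *Npr3*, −0.44 to 0.12 for *Bmp3* and −0.12 to 0.0933 for *Cav1*, and the difference of the effects from −0.72 to 2.07 for *Npr3* and −0.24 to 1.29 for *Cav1*. Between the WT tissues *Npr3* ran from −0.99 to 1.80, and between the *Lr11* -/- tissues *Sfrp5* from −0.50 to 0.97, *Npr3* from −1.40 to 0.45 and *Cav1* from −0.51 to 0.68. In the first array series, with no test, the sign was also changed for *Npr3* and *Cav1* between the genotypes in scWAT (−4.75 and −3.31), for the difference of the effects (−4.03 and −3.05) and between the WT tissues (−2.09 and −1.40), for *Cav1* in BAT (−0.26), and for *Sfrp5* and *Npr3* between the *Lr11* -/- tissues (−0.98 and 1.94). Over all probes the number called between the genotypes in scWAT was 1692 and ran from 0 with the 6 scWAT arrays alone to 7365 in the second series, and between the WT tissues it was 7970 and ran from 2379 to 11543. No paired analysis was possible because the labels do not name the mouse behind an array and carry no replicate numbers.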

Other observations

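*Lep*, which encodes the hormone leptin and follows fat cell size and fat mass, was named after its values were seen. It had its highest value on WT scWAT replicate 1, as the 5 expansion genes did, at 5.86, against −1.28 and 1.46 on the other WT scWAT arrays. The *Lr11* -/- scWAT arrays stood at −1.09, 1.12 and 1.55, and the BAT arrays between −1.01 and 2.22. WT scWAT replicate 1 was the highest array for 10.4% of all tested probes. *Lep* was picked from the 16 genes of lipid filling. Of these, *Cd36*, *Cidec*, *Col6a3*, *Hif1a* and *Lpl* were also highest on a WT scWAT array. *Lox* and *Sparc* were highest on WT scWAT replicate 2. *Angptl4*, *Dgat2*, *Fabp4*, *Fgf1*, *Plin1*, *Plin2*, *Scd1* and *Vegfa* were highest outside WT scWAT.

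WT scWAT replicate 1 also had the highest mean of mural and smooth muscle markers (3.15) and of endothelial markers (2.63) of the 12 arrays. Its adipocyte marker mean (7.62) was within 0.02 of the highest, that of *Lr11* -/- scWAT replicate 3 (7.64), and its skeletal muscle marker mean was −4.10.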
